A study of Rattus norvegicus with 8 samples.

Results

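The amino acid transporter genes were taken by symbol: all genes of the array annotation in the families Slc1, Slc3, Slc6, Slc7, Slc36, Slc38 and Slc43. The rule found 55 of 14506 measured genes, and each of the 55 was read by 1 probe set that paired with that gene alone. They were measured in cultured heart muscle cells isolated from the ventricles of neonatal rats (primary NRVMs). Cells of the control group (4 arrays) had received 0.4 µM of a scrambled control precursor, cells of the other group (4 arrays) 0.4 µM of a miR-222 precursor, and all had been transfected with the same lipid reagent and harvested 48 h later. The labels give no strain, genotype, exact age, number of rats or pooling of hearts. Nothing in them says whether the arrays stand for separate cultures, and p-values measure the spread between these samples only, which may be technical. The level of mature miR-222 was not analysed here.

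Amino acids cross membranes through carriers of several families. Slc1 holds sodium-driven carriers of glutamate and aspartate and exchangers of small neutral amino acids. Slc7 holds carriers of cationic amino acids and a set of light chains, which reach the surface only when bound to a heavy chain of Slc3. Slc38 carries glutamine and other neutral amino acids with sodium, and Slc36 includes carriers that work with protons. Slc43 carries large neutral amino acids by facilitated diffusion, and Slc6 carries amino acids, transmitters, taurine and creatine with sodium and, for many of its members, chloride. In heart muscle, taurine, glutamate, glutamine and creatine are held at high concentrations inside the cell by such carriers. Leucine taken up by light chain carriers is a signal for the growth kinase mTORC1. The symbol rule also takes in the monoamine carriers Slc6a2, Slc6a3 and Slc6a4, the creatine carrier Slc6a8, the nucleobase carrier Slc43a3 and Slc7a6os, a gene beside Slc7a6 that encodes no carrier.

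The mature strand that a miR-222 precursor gives is shown here with its relative miR-221, as RefSeq lists them for the rat build GRCr8 (chrX:6022682-6022702 and chrX:6023246-6023268, both + strand). The capitals mark the seed, bases 2 to 8, by which a microRNA mostly recognises its targets. The seed is the same in both, GCUACAU. The labels do not give the sequence of the precursor itself, and sites for this seed in the transcripts of the transporter genes were not analysed here.
rno-miR-222-3p: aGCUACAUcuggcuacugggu
rno-miR-221-3p: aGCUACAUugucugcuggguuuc

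Cells given miR-222 had higher levels of Slc1a1, Slc38a3 and Slc38a4, which carry glutamate, glutamine and neutral amino acids, at 2.39-fold, 2.23-fold and 1.90-fold of control. Levels of Slc1a4, Slc7a5 and Slc6a6, which carry small neutral amino acids, leucine and other large neutral amino acids, and taurine, were lower, with control 1.72-fold, 1.49-fold and 1.44-fold above miR-222. Of the 55 genes, 8 were higher, 8 were lower and 39 did not pass an adjusted p under 0.05 in limma. Over all genes 24.7% passed, 11.7% higher and 13.0% lower, and the 29.1% of transporter genes that passed lie near that background. Changes of at least 0.5 log2 units that also passed made up 6 of 55 (10.9%) against 5.32% of all genes. The median log2 fold change was 0.03 over the 55 genes and 0.01 over all genes. With each array centred on its median the split was 5 higher and 9 lower, with quantile normalization 5 higher and 7 lower. With a trended and robust prior in limma it was 10 higher and 8 lower. Dropping control replicate 1 gave 6 higher and 5 lower genes, and dropping miR-222 replicate 4 gave 7 and 5. The samples are bulk RNA, in which fewer cells of a type and less RNA per cell cannot be told apart.

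Whether a gene passed went with its brightness. Levels are log2 intensities, and the medians of the arrays lay at 7.66 to 7.77. Of 28 transporter genes with a mean at or above 7.66, 12 passed (42.9%, against 36.6% of all genes at such levels), and of 27 dimmer ones 4 passed (14.8%, against 6.33%). The dimmer set held 7 of 10 light chains of Slc7 and 4 of 7 transmitter, osmolyte and creatine carriers of Slc6. In 19 of the 55 genes (34.5%) the groups did not overlap, which is near the 33.3% of all genes, and all 16 genes that passed were among them. The other 3 were Slc36a1 (adjusted p = 0.0600), Slc6a13 (adjusted p = 0.0885) and Slc1a7 (adjusted p = 0.219), named after their values were seen.

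**Figure D1:**
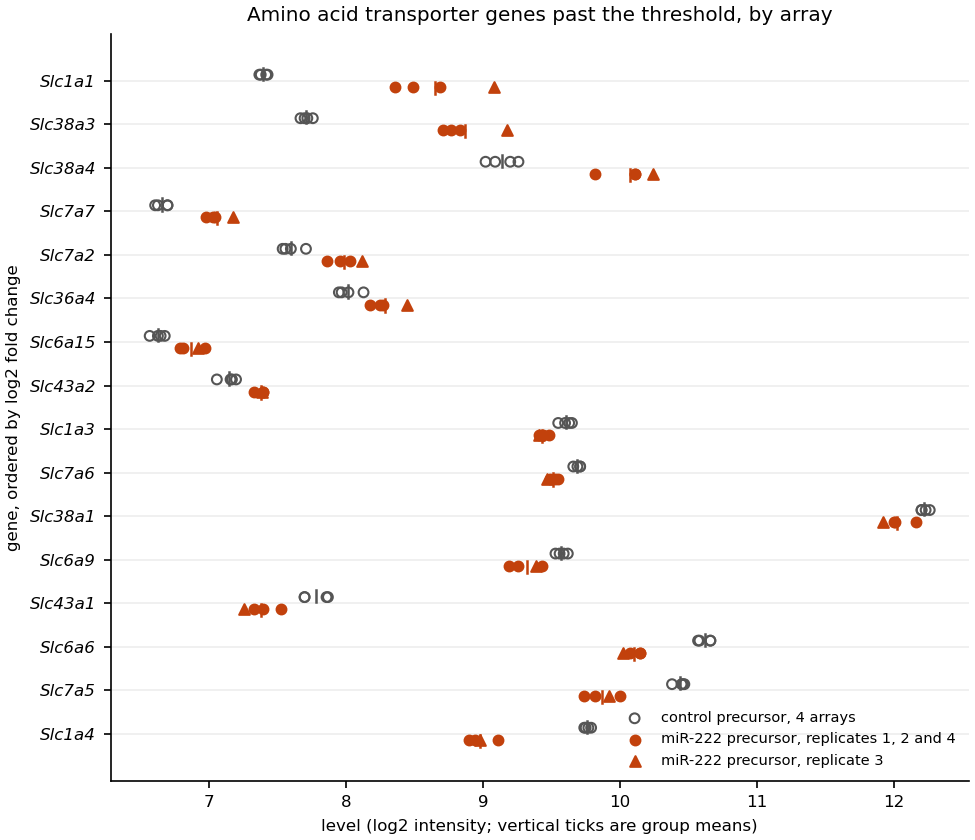
Log2 intensity (horizontal axis) of the 16 amino acid transporter genes past the threshold in each of the 8 arrays, ordered by log2 fold change. Open circles are control arrays, filled symbols miR-222 arrays with replicate 3 as a triangle, and short vertical ticks are group means. The groups do not overlap in any of the 16 genes, and Slc1a1 and Slc38a3 show the widest gaps among those that were higher.

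Of 40 measured markers of cell types, 2 were higher and 5 lower (17.5% passed, against 24.7% of all genes). The 7 cardiomyocyte markers were bright on all arrays, and their summed linear intensity was 62921 to 64232 in control and 55947 to 58252 with miR-222 (2 lower, 0 higher, and at an unadjusted p under 0.05 in limma 4 lower and 0 higher). The 2 lower were Myh7 at -0.61 and Ryr2 at -0.14, and the other 5 lay between -0.14 and -0.01. The sum of 7 fibroblast markers was 8614 to 9503 against 7560 to 8622 (1 lower, Postn at -0.54), and that of 5 smooth muscle markers 25583 to 25915 against 21326 to 24165 (1 lower, Tagln at -0.91). At an unadjusted p under 0.05 in limma, 3 fibroblast and 3 smooth muscle markers were lower and 0 of either list were higher. Most of the smooth muscle sum came from Des and Acta2, with control means of 13.30 and 13.26, as bright as the cardiomyocyte markers. It need not read smooth muscle cells alone, and the dimmest of the 5, Myh11, measured 0.16 and did not pass. The 5 endothelial markers summed to 1470 to 1556 against 879 to 995 (1 lower, Kdr at -1.51, with the other 4 between -0.13 and 0.04). Those 4 were dim, with means below the lowest array median. Macrophage markers summed to 584 to 633 against 615 to 673 (1 of 6 higher), Schwann and neuronal markers to 759 to 902 against 837 to 899 (0 of 4 passed, 0 unadjusted), epicardial markers to 482 to 544 against 491 to 535 (0 of 3 passed, 1 unadjusted) and erythroid markers to 612 to 776 against 673 to 842 (1 of 3 higher). No marker of these lists had a value at or below 1. Their part in the results on transporter genes was not tested.

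**Figure D2:**
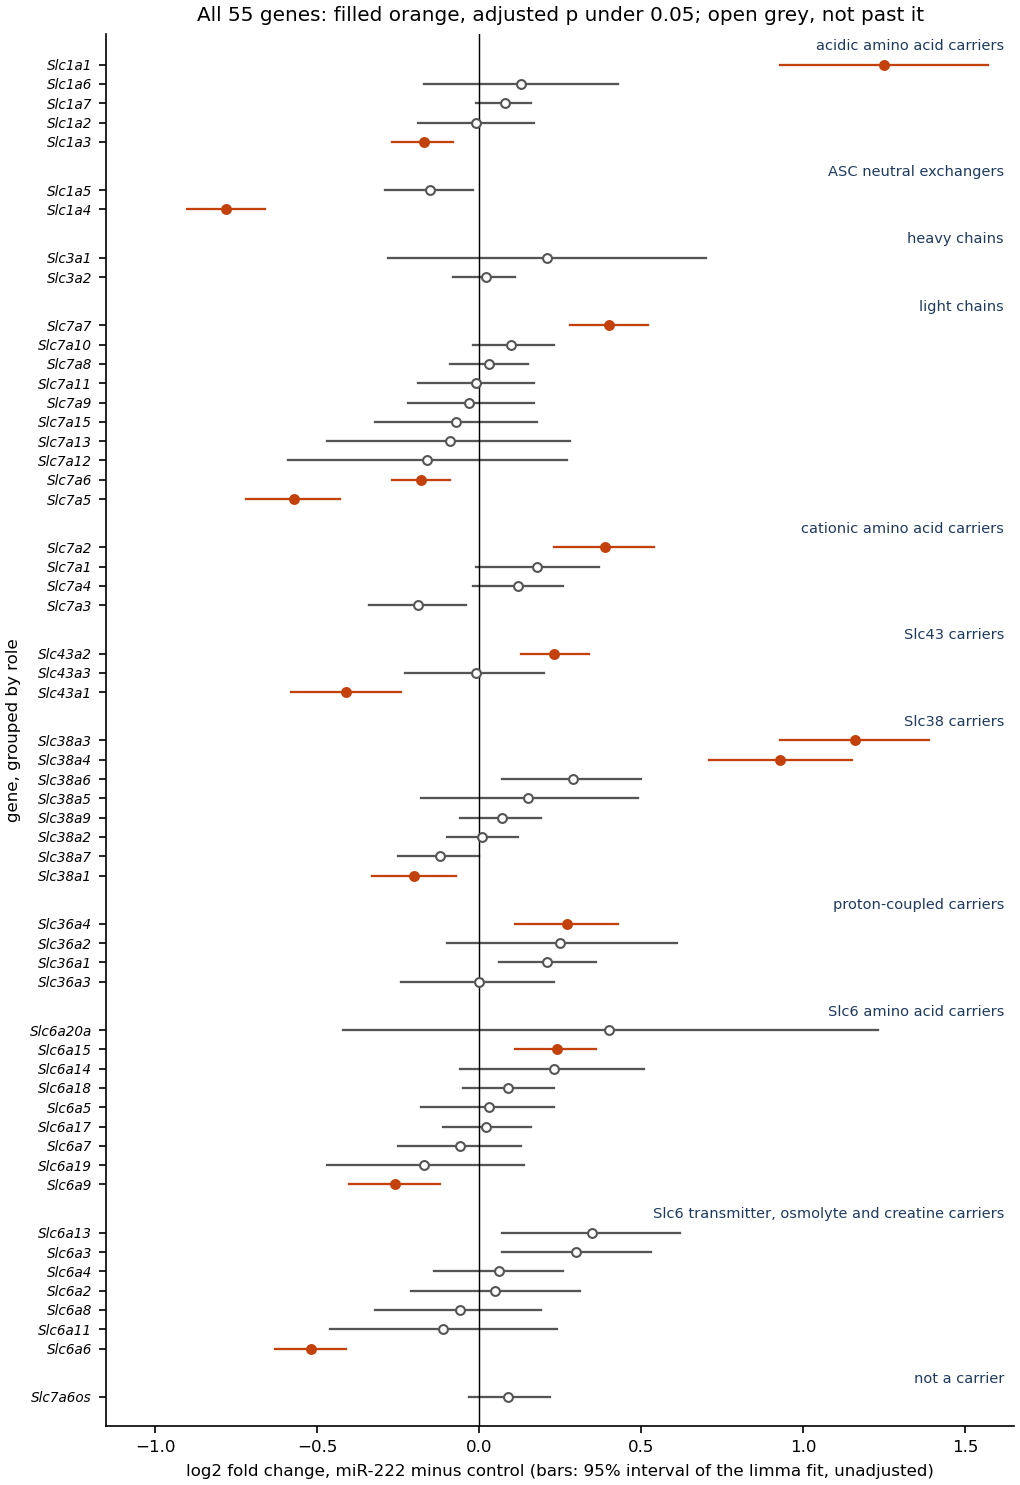
Log2 fold change of miR-222 minus control (horizontal axis) for all 55 genes, grouped by the role of the carrier, with the 95% interval of the limma fit, which is not adjusted for the number of genes. Filled orange points passed an adjusted p under 0.05, open grey points did not. Every role with at least 5 genes holds points on both sides of 0. The label of proton-coupled carriers stands for the Slc36 family, not all of which need work with protons.

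Among the carriers of acidic amino acids, Slc1a1 was higher with miR-222, Slc1a3 was slightly lower, and 3 of 5 did not pass. Of all genes 24.7% passed, and 5 genes are too few to compare with that share. Slc1a1, the neuronal and epithelial glutamate carrier EAAT3, which also takes up cysteine, read 7.38, 7.37, 7.43 and 7.42 log2 units in the control arrays and 8.69, 8.36, 9.08 and 8.49 in the miR-222 arrays (probe set 10714616). The control arrays lay close together below the array medians, and every miR-222 array was above them, with replicate 3 highest. The log2 fold change was 1.25 (SE 0.14, limma adjusted p = 0.000678), and 1.11 (adjusted p = 0.000302) without miR-222 replicate 3. Slc1a3, the glutamate carrier EAAT1, best known from glia, went from 9.61 ± 0.05 to 9.43 ± 0.03 (mean ± SD, n = 4 each, limma), a difference of -0.17 (SE 0.04, adjusted p = 0.0209). Dropping control replicate 1, 2 or 3 (adjusted p = 0.0661, 0.0541 and 0.0593) or replicate 4 of miR-222 (0.0573) ended that call. The dim genes Slc1a2, Slc1a6 and Slc1a7 measured -0.01, 0.13 and 0.08.

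Of the exchangers of small neutral amino acids, Slc1a4 fell and Slc1a5 did not pass. Slc1a4, which encodes ASCT1, an exchanger of alanine, serine and cysteine, read 9.77, 9.79, 9.74 and 9.75 in control and 8.90, 9.11, 8.98 and 8.94 with miR-222 (probe set 10778620). The miR-222 arrays all lay well below the narrow control range. It fell by 0.78 on the log2 scale (SE 0.05, limma adjusted p = 8.18e-05), the smallest p among the 55 genes, and by 0.75 to 0.82 under the 16 alternative settings. Slc1a5, which encodes the glutamine exchanger ASCT2, measured -0.15 (SE 0.06, adjusted p = 0.117), from 7.95 ± 0.08 in control to 7.79 ± 0.08 with miR-222 (mean ± SD, n = 4), and its groups overlapped.

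The heavy chains did not pass, and 3 of 10 light chains did (30.0%, near the 24.7% of all genes). Slc3a2, which encodes 4F2hc or CD98, the partner of most light chains, read 12.13, 12.12, 12.03 and 12.13 in control and 12.08, 12.15, 12.14 and 12.11 with miR-222 (probe set 10728507). The groups overlapped, and the log2 fold change was 0.02 with a 95% interval of -0.08 to 0.11. Slc3a1, the heavy chain rBAT of kidney and gut, was dim and varied among the control arrays from 6.85 to 7.87, with a fold change of 0.21 and an interval of -0.28 to 0.70. At an unadjusted p under 0.05 in limma 0 of these 2 genes passed.

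Slc7a5, Slc7a6 and Slc7a7, all partners of Slc3a2, were the light chains that passed. Slc7a5, which encodes LAT1, the main importer of leucine in many growing cells, read 10.47, 10.45, 10.46 and 10.38 in control and 9.74, 10.00, 9.92 and 9.82 with miR-222 (probe set 10811531). All 4 miR-222 arrays were below all control arrays, and Slc7a5 fell by 0.57 on the log2 scale (SE 0.06, limma adjusted p = 0.000593). Slc7a6, the exchanger y+LAT2 of cationic for neutral amino acids, fell by 0.18 (SE 0.04, adjusted p = 0.0142), from 9.66 to 9.71 in control down to 9.47 to 9.55. Its relative Slc7a7, y+LAT1, was dim but rose by 0.40 (SE 0.05, adjusted p = 0.00162), from 6.61 to 6.70 up to 6.98 to 7.18. The cystine-glutamate exchanger gene Slc7a11, xCT, overlapped between groups at -0.01 (interval -0.19 to 0.17), and Slc7a8, LAT2, and Slc7a10, Asc-1, measured 0.03 and 0.10. The light chain genes Slc7a9, Slc7a12, Slc7a13 and Slc7a15 were dim and measured -0.03, -0.16, -0.09 and -0.07.

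Light chains were also set against Slc3a2 within each array, since the protein pairs are made from both transcripts. A probe's brightness depends on its sequence, so only the change of such a difference between groups is read. The log2 difference of Slc7a5 minus Slc3a2 was -1.66, -1.66, -1.57 and -1.74 in control and -2.34, -2.15, -2.22 and -2.29 with miR-222, a change of -0.59 (SE 0.05). That of Slc7a6 changed by -0.19 (SE 0.04) and that of Slc7a7 by 0.38 (SE 0.05). In each of these 3 pairs the groups did not overlap. For Slc7a8, Slc7a10 and Slc7a11 the changes were 0.01, 0.09 and -0.03 (SE 0.07, 0.06 and 0.08), and the groups overlapped. The pairs were chosen after the values of the single genes were known, and Slc3a2 itself measured 0.02, so these differences restate the values of the light chains and are given as a description with no test.

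**Figure D3:**
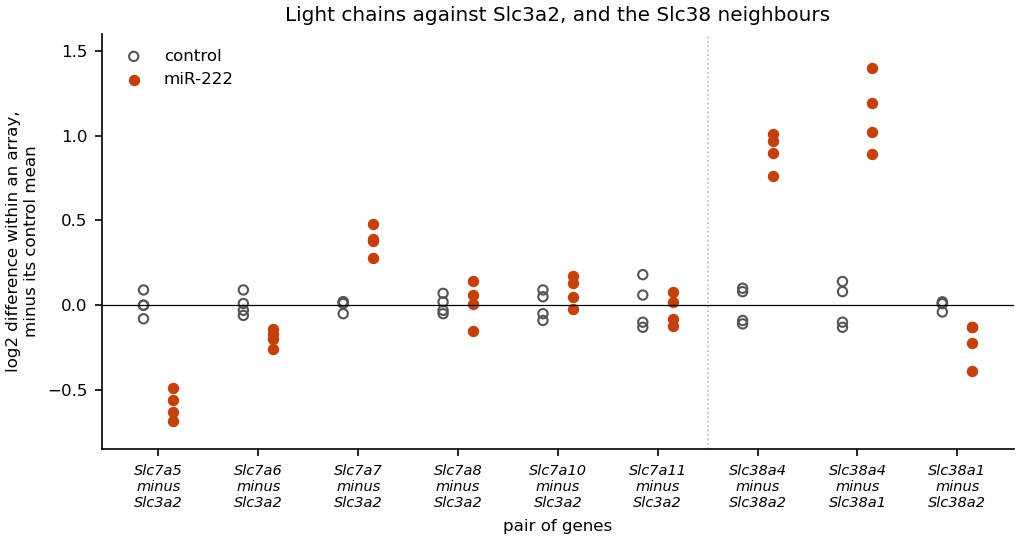
Difference of the log2 levels of 2 genes within an array, minus its mean over the control arrays (vertical axis), for 6 light chain genes against Slc3a2 and for 3 pairs of the neighbouring Slc38 genes. Open points are the 4 control arrays and filled points the 4 miR-222 arrays; the groups are apart for Slc7a5, Slc7a6, Slc7a7 and the 3 Slc38 pairs and overlap for Slc7a8, Slc7a10 and Slc7a11.

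Of 4 carriers of cationic amino acids, Slc7a2 was higher and 3 did not pass. Slc7a2, which encodes CAT2, an arginine carrier that supplies nitric oxide synthases, read 7.71, 7.56, 7.60 and 7.54 in control and 8.03, 7.96, 8.12 and 7.86 with miR-222. The groups were apart, and the gene rose by 0.39 (SE 0.07, limma adjusted p = 0.00533). The widely expressed arginine and lysine carrier gene Slc7a1 overlapped between groups, at 0.18 (SE 0.08, adjusted p = 0.178). Slc7a3 measured -0.19 and Slc7a4, whose transport function is unclear, 0.12.

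Both large neutral amino acid carriers of Slc43 passed, in opposite directions, at dim levels, while Slc43a3 did not pass. Of all genes below the lowest array median, where these 3 lay, 6.33% passed, and 3 genes are too few to compare with that share. Slc43a1, which encodes LAT3, read 7.87, 7.70, 7.70 and 7.86 in control and 7.40, 7.33, 7.26 and 7.53 with miR-222, and fell by 0.41 (SE 0.07, limma adjusted p = 0.00620). Its relative Slc43a2, LAT4, went from 7.15 ± 0.06 to 7.38 ± 0.03 (mean ± SD, n = 4, limma), a rise of 0.23 (SE 0.05, adjusted p = 0.00869). The call of Slc43a2 was lost with each array centred on its median (adjusted p = 0.0614) or with quantile normalization (adjusted p = 0.0626). Slc43a3, which lies near Slc43a1 on chromosome 3 with 1 coding gene between them in the RefSeq annotation of GRCr8, measured -0.01.

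The sodium-coupled Slc38 family held 2 of the largest rises. Slc38a3, the glutamine carrier SNAT3 of liver, kidney and astrocytes, read 7.72, 7.76, 7.67 and 7.70 in control and 8.83, 8.71, 9.18 and 8.77 with miR-222 (probe set 10920122). It stood at the array medians in control cells and about 1 log2 unit above them with miR-222. Its log2 fold change was 1.16 (SE 0.10, limma adjusted p = 0.000212), and 1.06 without replicate 3, the highest array. Slc38a4, a carrier of neutral and cationic amino acids known from liver and placenta, read 9.02, 9.09, 9.20 and 9.26 in control and 9.82, 10.11, 10.24 and 10.11 with miR-222 (probe set 10906626), and rose by 0.93 (SE 0.10, adjusted p = 0.000466). The lowest miR-222 array was still above the highest control array.

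The other Slc38 genes moved less. Slc38a1, which encodes the glutamine carrier SNAT1, read 12.23, 12.26, 12.20 and 12.20 in control and 12.01, 12.16, 11.92 and 12.00 with miR-222, a fall of 0.20 (SE 0.06, limma adjusted p = 0.0410). Dropping replicate 2 of miR-222 kept this call, while dropping any of the other 7 arrays (adjusted p = 0.0749 to 0.105) or quantile normalization (0.0513) ended it. Slc38a2, SNAT2, which cells induce when amino acids are short, was among the brightest probe sets and overlapped between groups, at 12.58 to 12.63 in control and 12.53 to 12.68 with miR-222 (0.01, interval -0.10 to 0.12). Slc38a6 measured 0.29 (adjusted p = 0.0696), Slc38a5 0.15, the lysosomal glutamine carrier gene Slc38a7 -0.12 and Slc38a9, the lysosomal arginine sensor of mTORC1, 0.07 with an interval of -0.06 to 0.19.

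Slc38a1, Slc38a2 and Slc38a4 are direct neighbours on chromosome 7 in the RefSeq annotation, with 0 coding genes between them. Their changes were -0.20, 0.01 and 0.93. Within the arrays, Slc38a4 minus Slc38a2 changed by 0.91 (SE 0.08), Slc38a4 minus Slc38a1 by 1.13 (SE 0.13) and Slc38a1 minus Slc38a2 by -0.21 (SE 0.06), each with groups that did not overlap. These pairs too were chosen after the single genes were seen, and the difference of Slc38a4 and Slc38a1 is fixed by the other two, so they are a description with no test. Neighbours of the Slc36 family on chromosome 10, Slc36a3, Slc36a2 and Slc36a1, measured 0.00, 0.25 and 0.21, and none of these 3 passed in limma.

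Of the Slc36 carriers, 1 of 4 passed. Slc36a4, which encodes PAT4, a high-affinity carrier of proline and tryptophan, read 7.95, 8.02, 8.13 and 7.97 in control and 8.27, 8.18, 8.45 and 8.25 with miR-222, a rise of 0.27 (SE 0.07, limma adjusted p = 0.0323). Dropping control replicate 3 or replicate 2 of miR-222 kept this call, while dropping any of the other 6 arrays (adjusted p = 0.0503 to 0.0890), centring (0.0952) or quantile normalization (0.0785) ended it. Slc36a1, the lysosomal carrier PAT1, read 9.11 to 9.29 in control and 9.34 to 9.57 with miR-222 and did not pass at 0.21 (SE 0.07).

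In Slc6 the taurine carrier gene Slc6a6 showed the largest change that passed. Slc6a6, TauT, which loads heart muscle with taurine, read 10.66, 10.66, 10.57 and 10.58 in control and 10.07, 10.15, 10.02 and 10.15 with miR-222 (probe set 10857314). All miR-222 arrays were lower, by 0.52 on the log2 scale (SE 0.05, limma adjusted p = 0.000338). Slc6a8, the creatine carrier gene, was tight in control at 11.10 to 11.14 and spread with miR-222 from 10.81 to 11.37, with replicate 3 highest, so its difference of -0.06 had an interval of -0.32 to 0.19. The monoamine carrier genes Slc6a2, Slc6a3 and Slc6a4 measured 0.05, 0.30 and 0.06 and the GABA carrier genes Slc6a11 and Slc6a13 -0.11 and 0.35, and none of these 5 passed, with Slc6a3 and Slc6a13 at an unadjusted p of 0.0168 and 0.0208.

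Of 9 amino acid carriers of Slc6, 1 was higher and 1 lower (22.2% passed, near the 24.7% of all genes). Slc6a9, the glycine carrier GLYT1, read 9.62, 9.53, 9.56 and 9.59 in control and 9.19, 9.43, 9.39 and 9.26 with miR-222, a fall of 0.26 (SE 0.06, limma adjusted p = 0.0212). The call ended on dropping control replicate 1 (0.0641), control replicate 4 (0.0536) or replicate 4 of miR-222 (0.0583). Slc6a15, a carrier of branched-chain amino acids and proline known from brain, was dim at 6.57 to 6.68 in control and 6.79 to 6.97 with miR-222, a rise of 0.24 (SE 0.05, adjusted p = 0.0177). Its adjusted p was 0.0509 on dropping control replicate 1, 0.0820 with centred arrays, 0.0651 with quantile normalization and 0.0542 with a trended and robust prior. Slc6a17, a vesicular carrier of neurons, was among the 5 brightest transporter genes and measured 0.02 (interval -0.11 to 0.16). The kidney and gut carrier gene Slc6a20a spread within both groups, from 6.74 to 8.03 in control and 7.06 to 8.43 with miR-222, and did not pass at 0.40 (SE 0.36), while Slc6a5, Slc6a7, Slc6a14, Slc6a18 and Slc6a19 lay between -0.17 and 0.23.

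miR-222 replicate 3 lay farthest from the control mean in 10 of the 16 genes that passed, in 6 of 8 that were higher and 4 of 8 that were lower. Over the 8 higher genes its mean difference from control was 0.78, and those of the remaining 3 replicates were 0.51 to 0.59. Over the 8 lower genes it was -0.42, within the -0.43 to -0.32 of the others. How often replicate 3 lay farthest over all genes was not counted. Its mean correlation with the other miR-222 arrays was 0.9909, within the 0.9899 to 0.9918 of replicates 1, 2 and 4. The 34 genes outside the naming rule lay between -0.19 and 0.40 with a median of 0.05, Slc7a6os among them at 0.09. Without miR-222 replicate 3, 7 genes were higher and 7 lower, and Slc36a4 (adjusted p = 0.0503) and Slc38a1 (adjusted p = 0.0815) were those that lost their call.

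Promoter sequence was read for the transporter genes because several carriers are known to be induced by the transcription factor ATF4 when amino acids are short. ATF4 with a C/EBP partner binds elements that share the core TGATGNAA, where N is any base. RefSeq windows of 300 bases, from 250 before to 50 after a gene's start, were given for 43 of the 55 genes (47 windows). The core, searched on both strands, was found in 3 genes, which is 6.38% of their windows against 3.98% of 33469 windows of all genes and 2.97% of those of genes on the array. A match is a description of letters only. The 60 bases around each match are printed 5′ to 3′ on the strand of the gene, all upstream of the start, with the match in capitals. In Slc1a4 it reads on the opposite strand, 235 to 228 bases before the start, in Slc38a1 on the same strand, 142 to 135 bases before, and in Slc7a1 on the same strand, 30 to 23 bases before. They lie in GRCr8 at chr14:98761753-98761812 (- strand), chr7:129681510-129681569 (- strand) and chr12:11664428-11664487 (+ strand).
Slc1a4: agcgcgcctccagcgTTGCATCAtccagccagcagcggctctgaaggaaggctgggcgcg
Slc38a1: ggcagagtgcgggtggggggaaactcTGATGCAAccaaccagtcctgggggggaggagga
Slc7a1: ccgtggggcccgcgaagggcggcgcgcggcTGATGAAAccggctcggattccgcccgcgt

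Slc1a4 and Slc38a1 were lower with miR-222, at -0.78 and -0.20, and Slc7a1 did not pass at 0.18. Among 8 transporter genes known as ATF4 targets (Slc1a4, Slc1a5, Slc3a2, Slc6a9, Slc7a1, Slc7a5, Slc7a11 and Slc38a2, a set put together after the values were seen), 0 were higher, 3 were lower and 5 did not pass, with a median of -0.08. At an unadjusted p under 0.05 in limma, 0 were higher and 4 lower. All 8 lay at or above the lowest array median, where 36.6% of all genes passed, so 3 of 8 lies near that share.

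Other genes of the amino acid response were higher where they passed. Of 26 measured genes of the response that the kinase GCN2 and ATF4 drive, 12 were higher, 0 were lower (0 also at an unadjusted p under 0.05 in limma, 1 without replicate 3 of miR-222) and 14 did not pass, with a median of 0.24 against 0.01 over all genes. All 26 lay at or above the lowest array median, and 46.2% of them passed, against 36.6% of all genes at such levels. The stress factor gene Ddit3, which encodes CHOP, read 9.58, 9.56, 9.61 and 9.64 in control and 10.13, 10.62, 10.68 and 10.21 with miR-222 and rose by 0.81 (SE 0.13, limma adjusted p = 0.00312). The proline synthesis gene Aldh18a1 rose by 0.34 (SE 0.04), the alanine aminotransferase gene Gpt2 by 0.38 (SE 0.05) and the serine synthesis gene Phgdh by 0.29 (SE 0.04). Atf4 itself overlapped between groups at -0.05, and the asparagine synthetase gene Asns did not pass at 0.09; both were singled out after their values were seen. The difference in direction between this list and the 8 carriers was not tested.

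Genes that sense amino acids for mTORC1 went both ways. Of 26 measured, 9 were higher, 3 lower and 14 did not pass, with a median of 0.01. These 26 genes also lay at or above the lowest array median, and 46.2% passed, against 36.6% of all genes there. The sestrin gene Sesn1, of a family that binds leucine and holds mTORC1 back, rose by 0.54 (SE 0.06, limma adjusted p = 0.000888), the arginine sensor homologue gene Castor2 by 0.41 (SE 0.07) and Depdc5, of the inhibitory complex GATOR1, by 0.26 (SE 0.05), while folliculin, Flcn, fell by 0.27 (SE 0.04). These 4 had the smallest p of the list. The other higher genes were Lamtor1, Lamtor3, Rragc, Nprl3, Tsc2 and Bmt2, at 0.24, 0.16, 0.17, 0.18, 0.13 and 0.20. The other lower genes were Rptor and Sec13, at -0.23 and -0.20. Another sestrin gene, Sesn3, measured -0.20 and did not pass (limma adjusted p = 0.0593). Whether the list as a whole favours or restrains mTORC1 was not tested. With an array left out, 4 to 6 were higher and 1 to 2 lower. The count of 9 became 4 on dropping control replicate 1 and 5 on dropping control replicate 3 or 4, or replicate 1 or 4 of miR-222. The count of 3 became 1 on dropping control replicate 1, 2 or 3, or replicate 1 or 3 of miR-222.

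Of 19 measured cytosolic aminoacyl-tRNA synthetase genes, which load transfer RNAs, 4 were higher and 1 lower, with a median of 0.06. That is 26.3%, near the 24.7% of all genes and below the 36.6% of genes at or above the lowest array median, where all 19 lay. Eprs1, for glutamate and proline, rose by 0.51 (SE 0.04, limma adjusted p = 0.000168), Vars1, for valine, by 0.24 and Sars1, for serine, by 0.22, while Nars1, for asparagine, fell by 0.31 (SE 0.05, adjusted p = 0.00336). The count of 4 became 2 on dropping control replicate 1, 2 or 3, or replicate 1 of miR-222.

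Of 41 measured genes of amino acid synthesis and breakdown, 12 were higher, 1 lower and 28 did not pass, with a median of 0.07. The share that passed was 31.7%, against 24.7% of all genes and 36.6% of those at or above the lowest array median, where 32 of the 41 lay. Bcat1, the cytosolic enzyme that starts the breakdown of leucine, isoleucine and valine, fell by 0.58 (SE 0.07, limma adjusted p = 0.00105), from 9.41 to 9.65 in control down to 8.82 to 9.04, and was the lower member (3 lower without replicate 2 of miR-222, 2 with quantile normalization). Bckdhb, of the mitochondrial complex that acts next in that pathway, rose by 0.42 (SE 0.05) and the aspartate aminotransferase gene Got1 by 0.34 (SE 0.04). This list shares Gpt2, Phgdh, Psph, Psat1, Asns, Shmt2, Cth and Pycr1 with the GCN2 and ATF4 list. Of these, Gpt2, Phgdh, Psph and Psat1 are counted among the higher genes of both lists.

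Outside the families of the rule, 12 genes listed as carriers or partners of carriers of amino acids and peptides were measured, and 3 were higher, 0 lower (1 at an unadjusted p under 0.05 in limma, 1 without replicate 2 of miR-222 or with quantile normalization) and 9 did not pass. The share of 3 in 12 is close to the 24.7% of all genes that passed. Slc17a7, the vesicular glutamate carrier VGLUT1, read 7.31, 7.52, 7.52 and 7.49 in control and 8.33, 8.26, 8.31 and 8.28 with miR-222 and rose by 0.84 (SE 0.06, limma adjusted p = 8.45e-05). The lysosomal exporter gene of cationic amino acids Slc66a1 rose by 0.32 (SE 0.04). Slc26a6, at 0.66 (SE 0.10), is an anion exchanger and no amino acid carrier.

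**Figure D4:**
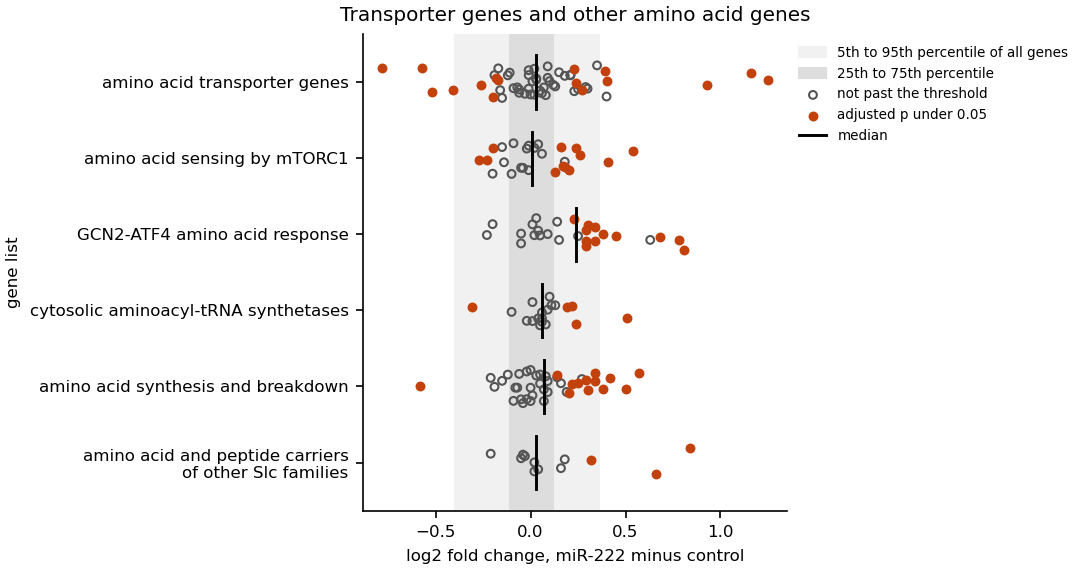
Log2 fold change of miR-222 minus control (horizontal axis) for the 55 transporter genes and 5 other lists of amino acid genes, 1 point per gene, with the list median as a black line and the 5th to 95th percentile of all genes in light grey, the 25th to 75th in darker grey. Filled points passed an adjusted p under 0.05; the GCN2 and ATF4 list has its 12 filled points above 0, whereas the transporter genes have 8 on either side.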

How the data were processed

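The deposited table held 1 intensity per probe set and array for 8 arrays, on a linear scale from 0.8 to 16339, as processed by the authors. Their normalization is not given in the sources used for this report, and detection calls were not used. Probe sets were named by the annotation their identifiers match, which is of another rat array than the series text names; 15310 paired with 1 gene, 323 with several and 13537 with none. The brightest probe set by mean stood for a gene. All 29170 rows were taken as log2 and fitted by lmFit and eBayes (limma 3.58.1 under R 4.3.3). Benjamini-Hochberg adjustment ran over all rows, 2-sided, with a threshold of 0.05. Replicates were numbered in listed order. Correlations within groups were 0.989 to 0.993, so no array repeated another.

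The transporter genes, lists and tests were chosen with earlier results of these data known. Named were the genes past the threshold, those with a change of at least 0.5, both heavy chains, the 5 brightest, and up to 4 genes per other list by smallest p. Tested on simulated data with 200 of 29170 rows changed, the fit recovered 47.2% of changes of 0.5 and 86.0% of changes of 1, with 6.09% false calls. In the real data a far larger share passed (24.7% of genes). The adjusted threshold depends on that share, so the recovery rates need not hold for these data. Alternatives were centring, quantile normalization, a pseudocount of 16, the upper 60% of rows, trended and robust eBayes, array weights, other choices of probe sets or adjusted rows, and leaving out each array.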

Additional observations from a re-analysis of the deposited data

Results flagged for a closer look

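Both groups of 21 named genes were searched for a single array far from the other 3 by Dixon's test, and 3 of 42 groups held one, where chance marks about 5% of groups. Slc6a17 stood at 10.70 in miR-222 replicate 3 and at 10.47 to 10.49 in the other 3 miR-222 arrays. Slc3a2 stood at 12.03 in control replicate 3 and at 12.12 to 12.13 in the other control arrays. Slc43a2 stood at 7.33 in miR-222 replicate 2 and at 7.39 to 7.40 in the others.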

How the results depend on the processing

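Of the 16 transporter genes that passed, 10 kept their call under every alternative in which they were fitted, 6 lost it under at least 1, and 0 of the 21 named genes reversed a call. The log2 fold changes of Slc6a8, Slc3a2, Slc6a17 and Slc38a2, which did not pass, took both signs among the alternatives, between -0.17 and 0.05. The count of higher genes was 5 with centred arrays and 5 with quantile normalization, 6 to 8 with an array left out, and 8 to 10 under the other alternatives. The count of lower genes was 5 to 9 with an array left out. With quantile normalization 2 genes of synthesis and breakdown and 1 of the other carriers were lower. With an array left out, mTORC1 sensing held 4 to 6 higher and 1 to 2 lower genes, the GCN2 and ATF4 list 11 to 12 and 0 to 1, the synthetases 2 to 4 and 1, synthesis and breakdown 10 to 12 and 1 to 3, and the other carriers 3 and 0 to 1. The cause of these shifts was not tested, and leaving out an array also lowers the number of arrays. The filter on dim rows left 33 of the 55 genes. No paired analysis was possible because the labels give no replicate numbers or pairing. Without detection calls, dim probe sets cannot be told from background.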
